A study of Mus musculus with 12 samples.

Results

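The genes described here are 36 mouse genes of glycolysis and of the response to low oxygen, listed by gene symbol with earlier results of these data known, out of 36047 genes in the table. They comprise 3 glucose carriers, 15 enzymes of the glycolytic pathway, 3 genes of the lactate step, 3 regulators of glucose flux, the hypoxia-inducible factor (HIF) subunit Hif1a with 2 of its hydroxylases, and 9 targets of hypoxia outside glycolysis. All 36 were present in the table, and 34 had a mean normalized count above 10 and were tested, whereas Ldhb and Ak4 fell under this limit. Their RNA was measured by RNA sequencing in 3 subsets of eosinophils, granulocytes of the innate immune system that reside in large numbers in the small intestine (SI).

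Cells of the proximal SI lamina propria were sorted by 2 surface proteins, the gut-homing integrin α4β7 and the inhibitory lectin CD22, into the subsets α4β7+, α4β7− CD22−, and CD22+. The gate by which the study defines eosinophils in flow cytometry takes live CD45+ cells with CD11b and SiglecF and without MHCii or Ly6g, the last being the surface marker of neutrophils. Each subset had 4 libraries, 12 in all, and each library came from the pooled cells of 2 mice, so that the spread between libraries is a spread between pools and not between single animals. All mice were wild type C57BL/6J, female according to the sample labels, and the labels name no treatment. Sort day and RNA quality by subset were not analysed here. The study treated α4β7+, α4β7− CD22−, and CD22+ cells as successive stages of residence in the tissue, and the last 2 are called the later subsets.

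Glycolysis splits glucose into pyruvate in a chain of enzyme steps that yields ATP without oxygen, and lactate dehydrogenase and a lactate carrier then clear the product. When oxygen is scarce, the prolyl hydroxylases encoded by Egln genes no longer mark HIF-1α for destruction, and HIF binds short DNA elements near its target genes. Many of these targets are the glycolytic genes themselves, and others act in vessel growth, mitophagy, collagen synthesis, and restraint of cell growth.

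The values are normalized counts, and their sum over all genes was 15783607 to 16915755 in the α4β7+ libraries, 15011473 to 15740374 in the α4β7− CD22− libraries, and 14286474 to 14758267 in the CD22+ libraries. Pearson correlations of log2 values between libraries lay between 0.921 and 0.966. Of the sorting markers, Itgb7, the β7 chain of α4β7, averaged 2526, 220.4, and 155.8 in the 3 subsets in the order above, and Cd22 averaged 1115, 4462, and 13334. Cd22 RNA was thus highest in the CD22+ subset but was also higher in the α4β7− CD22− than in the α4β7+ subset, with a log2 fold change of 1.99. Itga4, the α4 chain, averaged 37469, 29433, and 26876 and was not called in any comparison. Siglecf, the surface lectin used to gate eosinophils, averaged 7534, 7827, and 7339.8 and was not called in any comparison, but 10 and 11 of 11 eosinophil markers had a log2 fold change below 0 in α4β7− CD22− and CD22+ compared to α4β7+ eosinophils. In bulk libraries such as these, fewer cells of a type and less RNA per cell cannot be told apart.

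All members called in a comparison with α4β7+ eosinophils were lower in the later subset, and 29 and 30 of the 34 tested genes had a log2 fold change below 0 in α4β7− CD22− and CD22+ eosinophils, respectively. Compared to α4β7+ eosinophils, 14 were lower and 0 were higher in α4β7− CD22− eosinophils, where calls required an adjusted p of at most 0.05 in limma and a fold change of at least 1.5. Among all 15249 genes tested in this comparison, 4.35% were called lower and 3.7% were called higher. In CD22+ eosinophils, 18 were lower than in α4β7+ eosinophils and 0 were higher, beside 6.39% of all genes called lower and 5.6% called higher. These 18 include all of the 14. Between CD22+ and α4β7− CD22− eosinophils only Eno1 was called, lower in CD22+ cells, beside 0.393% of all genes called lower and 0.21% called higher. By the adjusted p alone, 19, 22, and 2 of the 34 genes were lower in the 3 comparisons and 0 were higher, beside 7.73%, 11.1%, and 0.82% of all genes lower. The libraries of the compared subsets did not overlap for 18, 21, and 8 of the 34, each with the later subset below, beside 9.8%, 11.8%, and 3.72% of all genes. When α4β7− CD22− and CD22+ libraries were paired by replicate number, 18 of the 34 genes were lower in CD22+ eosinophils in all 4 pairs and 0 were higher in all 4, beside 10.7% of all genes lower in all 4, and a limma fit of these 2 subsets with the pairs as a block, added after the data were seen, also called only Eno1 (adjusted p = 0.0127). The labels do not say that equal numbers mark the same mice. Log2 fold changes are differences of mean log2(normalized count + 1), which understate those of low genes. Their median over the 34 genes was −0.53, −0.81, and −0.16 in the 3 comparisons, beside medians of 0.003, 0.014, and −0.001 over all genes tested. Both comparisons with α4β7+ eosinophils use the same 4 α4β7+ libraries, so their counts are not independent of each other.

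**Figure D1:**
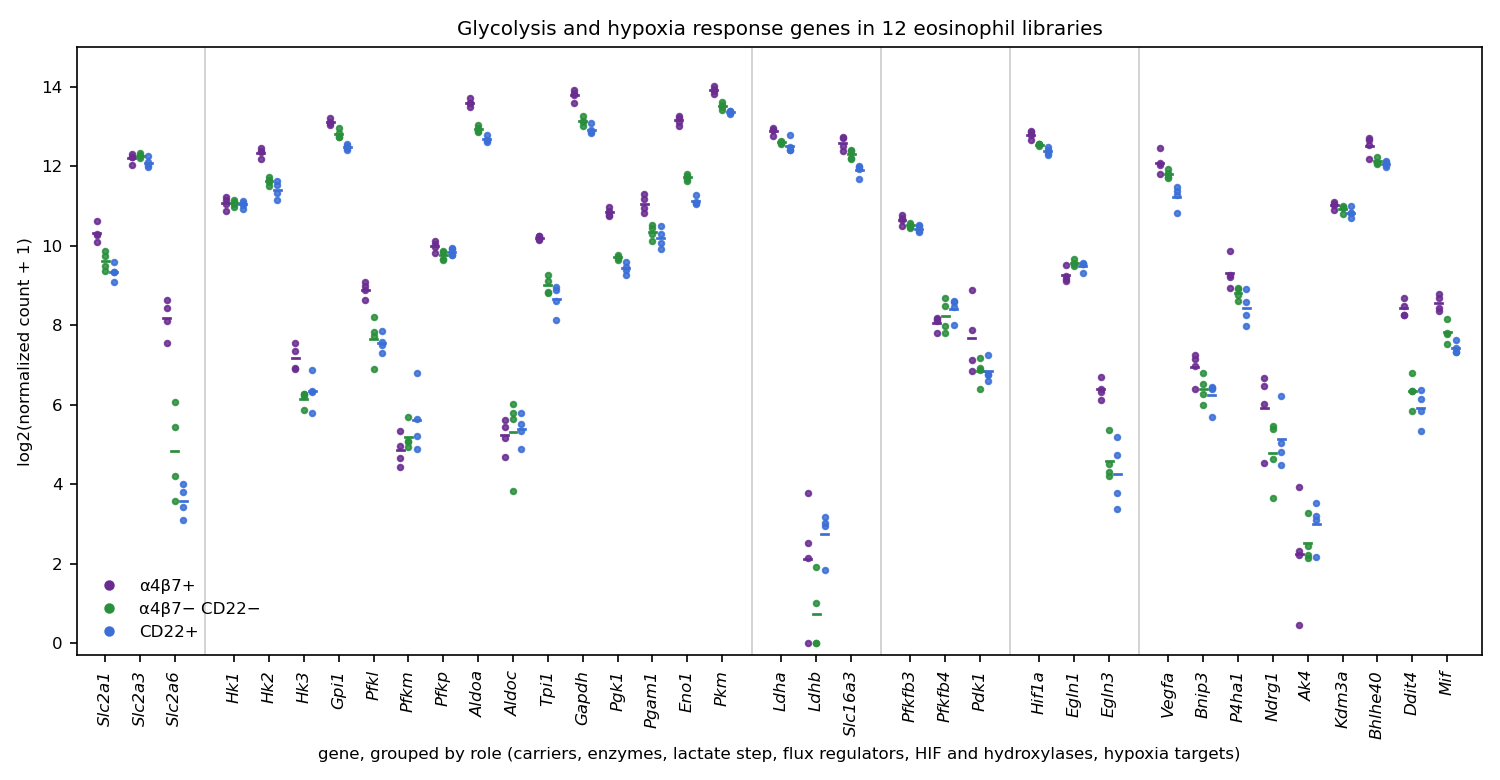
Normalized counts of the 36 genes on a log2(normalized count + 1) axis, with a point for each of the 12 libraries and a bar for the mean of each subset, grouped by role from glucose carriers on the left to hypoxia targets on the right. Most genes step down from α4β7+ to the other subsets, with Slc2a6 from a mean of 300.2 to 11.4 normalized counts, whereas Hk1 and Slc2a3 stay level and Ldhb and Ak4 lie near the bottom of the axis.

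The promoters of 6 of these genes are shown because their values carry the results that follow: Eno1 and Pgk1 are enzymes whose steps down differed in size, Slc2a6 and Ddit4 fell furthest within their classes, and Egln3 and Egln1 are paralogs with fold changes of opposite sign. Each stretch is from RefSeq on GRCm38.p6, read 5′ to 3′ on the strand of the gene, and covers up to 250 bases before a transcription start, cut shorter where the annotated gene body begins. The cut removed 64 bases from Ddit4 and 70 from Egln1, whereas the counts below use the uncut windows. The part removed from Egln1 held an ACGTG 68 bases before the start, which is therefore not shown. Capitals mark the core letters of the hypoxia response element, ACGTG or GCGTG, on either strand, so that CACGT and CACGC are the same letters read on the other strand. The Eno1 stretch is chr4:150236458-150236707 on the plus strand, that of Pgk1 chrX:106186850-106187099 on the plus strand, that of Slc2a6 chr2:27027999-27028248 on the minus strand, that of Ddit4 chr10:59951835-59952020 on the minus strand, that of Egln3 chr12:54203875-54204124 on the minus strand, and that of Egln1 chr8:124949325-124949504 on the minus strand. Eno1 has 3 starts in RefSeq, and the stretch shown lies before the most upstream of them. The windows before its other starts each hold the core letters 2 times, between 62 and 113 bases before the start.
Eno1: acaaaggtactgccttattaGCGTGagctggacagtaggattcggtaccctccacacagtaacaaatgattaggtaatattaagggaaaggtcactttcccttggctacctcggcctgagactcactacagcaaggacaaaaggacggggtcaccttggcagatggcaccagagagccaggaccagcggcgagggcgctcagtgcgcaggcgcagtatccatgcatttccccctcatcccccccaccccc
Pgk1: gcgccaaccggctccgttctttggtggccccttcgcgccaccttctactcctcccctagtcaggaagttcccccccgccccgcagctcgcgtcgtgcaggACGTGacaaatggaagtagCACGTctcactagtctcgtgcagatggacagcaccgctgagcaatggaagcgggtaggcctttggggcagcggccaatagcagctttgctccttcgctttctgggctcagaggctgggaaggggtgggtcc
Slc2a6: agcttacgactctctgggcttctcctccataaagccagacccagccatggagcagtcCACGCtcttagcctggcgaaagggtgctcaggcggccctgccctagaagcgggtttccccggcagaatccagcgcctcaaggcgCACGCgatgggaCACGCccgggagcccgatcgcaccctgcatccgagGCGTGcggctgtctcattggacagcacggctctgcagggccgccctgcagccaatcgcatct
Ddit4: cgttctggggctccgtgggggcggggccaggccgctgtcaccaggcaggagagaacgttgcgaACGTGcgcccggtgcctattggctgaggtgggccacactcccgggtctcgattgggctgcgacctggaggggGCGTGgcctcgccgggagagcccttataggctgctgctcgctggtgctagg
Egln3: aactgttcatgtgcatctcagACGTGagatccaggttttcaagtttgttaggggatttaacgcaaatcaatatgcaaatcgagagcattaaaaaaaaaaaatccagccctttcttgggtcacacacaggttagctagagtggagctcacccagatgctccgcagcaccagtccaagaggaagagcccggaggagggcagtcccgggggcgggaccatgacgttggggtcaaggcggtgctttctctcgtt
Egln1: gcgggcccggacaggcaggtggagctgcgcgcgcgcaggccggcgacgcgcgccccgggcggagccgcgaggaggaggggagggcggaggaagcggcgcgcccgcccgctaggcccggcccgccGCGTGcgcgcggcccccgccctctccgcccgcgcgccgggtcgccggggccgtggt
The 250 bases before a RefSeq start were found for 33 of the 36 genes, and Slc2a3, Ndrg1, and Bhlhe40 had no entry in the table. Among the called genes, 15 of 18 had at least 1 start with ACGTG or GCGTG on either strand within this window, and among the tested genes not called, 13 of 13 did. Counted by starts, the motif was present before 18 of 23 starts of called genes (78.3%) and 18 of 24 starts of genes not called (75%), beside 38.6% of all 32851 RefSeq promoters of the same length. The latter share covers genes expressed here or not and was not matched for base composition, so enrichment was not tested. ACGTG is also contained in the E-box CACGTG, which was found in 0 of the 23 starts of called genes, in 5 of the 24 starts of genes not called, and in 6.02% of all promoters. A match of letters is a description and not a binding site.

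Of the 3 glucose carriers, Slc2a1 and Slc2a6 were lower in both later subsets and Slc2a3 was not called. Slc2a6 (ENSMUSG00000036067, chr2:27021363-27027998 on GRCm38), which encodes a glucose transporter of the lysosomal membrane known in inflammatory phagocytes, showed the largest difference of all 34 genes. Normalized counts of Slc2a6 were 277, 186, 342, and 396 in the α4β7+ libraries, 11.0, 17.5, 42.3, and 66.4 in the α4β7− CD22− libraries, and 9.82, 7.58, 15.1, and 12.9 in the CD22+ libraries. The lowest α4β7+ library stood above the highest library of either other subset, and the α4β7− CD22− libraries spread over a wider range than the CD22+ libraries. Slc2a6 was 10.2-fold lower in α4β7− CD22− (−3.35 ± 0.46 on the log2 scale, mean and standard error, adjusted p = 0.000171) and 24.1-fold lower in CD22+ eosinophils (−4.59 ± 0.46, adjusted p = 4.09e-06). With a pseudocount of 10 the latter log2 fold change was −3.82, and over all alternatives it lay between −4.81 and −3.82. The further difference between these subsets was −1.24 ± 0.46 and was not called (adjusted p = 0.335, and 0.296 with pairs as a block). Libraries of these subsets overlapped, and the CD22+ value was lower in 4 of 4 same-numbered pairs, as it was for 10.7% of all genes. The overlapping Slc2a1, Slc2a3, Hk2, Tpi1, Gapdh, P4ha1, Kdm3a, Ddit4, and Mif were likewise lower in CD22+ eosinophils in 4 of 4 pairs and were not called.

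Slc2a1 encodes GLUT1, the widely expressed glucose importer of the plasma membrane. Its libraries read 1232, 1092, 1571, and 1256 in the α4β7+ libraries, 661, 934, 858, and 719 in the α4β7− CD22− libraries, and 651, 769, 541, and 647 in the CD22+ libraries. All 4 α4β7+ libraries lay above the 8 others, and the α4β7− CD22− and CD22+ libraries overlapped. The log2 fold change of Slc2a1 was −0.70 ± 0.14 in the α4β7− CD22− subset (adjusted p = 0.00318) and −0.98 ± 0.14 in CD22+ cells (adjusted p = 0.000117). Slc2a3, which encodes the high-affinity importer GLUT3, ranged from 4019 to 5147 over the 12 libraries, and its log2 fold changes over α4β7+ were 0.06 ± 0.078 and −0.11 ± 0.078 (adjusted p = 0.662 and 0.371).

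The carriers also differed in level. Per kilobase (kb) of their longest coding transcript, Slc2a3 averaged 1195 normalized counts in α4β7+ eosinophils, Slc2a1 395, and Slc2a6 140.4. In CD22+ eosinophils these levels were 1107, 199.98, and 5.31 per kb. The carrier at the highest level per kb was therefore the carrier for which no difference between subsets was called.

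Among the 15 glycolytic enzymes, 9 were called lower in α4β7− CD22− and 10 in CD22+ eosinophils compared to α4β7+ eosinophils, and 0 were called higher. The 5 carriers and enzymes whose adjusted p exceeded 0.05 in both comparisons, Slc2a3, Hk1, Pfkm, Pfkp, and Aldoc, each have a paralog among the members that was called, and this was noticed after their values were seen. The steps represented here by a single gene, Gpi1, Tpi1, Gapdh, Pgk1, Pgam1, Eno1, and Pkm, all had an adjusted p of at most 0.05 in both comparisons, although Gpi1 in α4β7− CD22− eosinophils and Pkm in both subsets were under the fold limit.

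Hexokinases trap glucose in the cell by phosphorylating it. Hk2, the inducible hexokinase of the outer mitochondrial membrane, gave 5267, 4683, 5302, and 5617 in the α4β7+ libraries, 3251, 3411, 3134, and 2928 in the α4β7− CD22− libraries, and 3148, 2960.0, 2275, and 2564 in the CD22+ libraries. Its α4β7+ libraries lay above all others, and the 2 later subsets overlapped. The log2 fold change of Hk2 was −0.71 ± 0.097 in the α4β7− CD22− subset (adjusted p = 0.000154) and −0.94 ± 0.097 in CD22+ cells (adjusted p = 5.48e-06). Hk3, a hexokinase of myeloid cells, was a low transcript with 121, 118, 161, and 187 in the α4β7+ libraries, 57.3, 73.3, 76.1, and 76.7 in the α4β7− CD22− libraries, and 54.7, 79.4, 117, and 80.1 in the CD22+ libraries. The α4β7+ libraries of Hk3 were highest, although the top CD22+ library, replicate 3, came close to the lowest of them. Its log2 fold change was −1.03 ± 0.24 (adjusted p = 0.00892) and −0.84 ± 0.24 (adjusted p = 0.0195), and the second call was lost without α4β7+ replicate 3 or 4 or CD22+ replicate 1, with an adjusted p of 0.0555, 0.0641, and 0.0656. Hk1, the constitutive hexokinase, stayed at 2158 ± 219, 2146 ± 112, and 2107 ± 121 normalized counts (mean ± SD, n = 4), and the 95% interval of its log2 fold change was −0.18 to 0.17 in α4β7− CD22− and −0.21 to 0.14 in CD22+ eosinophils. Per kb, Hk2 averaged 946 and Hk1 504 in α4β7+ eosinophils, whereas both stood near the same level in CD22+ eosinophils, at 496 and 492.

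Gpi1, the isomerase that turns glucose 6-phosphate into fructose 6-phosphate, decreased in each step. Normalized counts of Gpi1 were 8793, 8365, 8780.4, and 9538 in the α4β7+ libraries, 7953, 7271, 6844, and 6875 in the α4β7− CD22− libraries, and 5987, 5823, 5642, and 5417 in the CD22+ libraries. None of the 3 subsets overlapped for this gene. The log2 fold change was −0.29 ± 0.067 in α4β7− CD22− eosinophils, which passed the adjusted p (adjusted p = 0.00779) but not the fold limit, and −0.63 ± 0.067 in CD22+ eosinophils, which passed both (adjusted p = 6.56e-06). CD22+ differed from α4β7− CD22− eosinophils by −0.34 ± 0.067 (adjusted p = 0.0245), again under the fold limit.

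Phosphofructokinase commits the sugar to glycolysis, and its 3 genes encode the liver (Pfkl), muscle (Pfkm), and platelet (Pfkp) forms. Pfkl read 509, 395, 471, and 543 in the α4β7+ libraries, 118, 212, 225, and 296 in the α4β7− CD22− libraries, and 158, 229, 191, and 182 in the CD22+ libraries. All α4β7+ libraries exceeded the 8 others, with the widest spread in α4β7− CD22− eosinophils. Its log2 fold change was −1.23 ± 0.22 (adjusted p = 0.00167) and −1.33 ± 0.22 (adjusted p = 0.000517) in the α4β7− CD22− and CD22+ subsets. Pfkp ranged from 798 to 1115 and Pfkm from 20.6 to 109.7 over the 12 libraries, with log2 fold changes in CD22+ eosinophils of −0.14 ± 0.091 (adjusted p = 0.314) and 0.77 ± 0.39 (adjusted p = 0.186). Per kb, Pfkp stood highest in every subset (246, 209, and 222), followed by Pfkl (128, 57.0, and 50.9) and Pfkm (10, 12.6, and 19.4). The longest coding transcript of Pfkp shares 18.0% of its length with transcripts of its neighbor Pitrm1, so that counts of these 2 genes may be split uncertainly.

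Aldolase A, encoded by Aldoa, cleaves fructose 1,6-bisphosphate and was among the most abundant transcripts of the pathway. Normalized counts of Aldoa were 13432, 12429.5, 12369, and 11547 in the α4β7+ libraries, 8356, 7917, 7513, and 7392 in the α4β7− CD22− libraries, and 6222, 6443, 6420.1, and 7089 in the CD22+ libraries. Each subset lay apart from the others, with α4β7+ highest and CD22+ lowest. The log2 fold change was −0.67 ± 0.067 (adjusted p = 8.23e-06) and −0.93 ± 0.067 (adjusted p = 1.42e-07), and the difference between the later subsets, −0.25 ± 0.067, was not called (adjusted p = 0.106). Aldoc, the aldolase of brain, ranged from 13.3 to 63.4 with no call. Tpi1, which interconverts the 2 triose phosphates, gave 1204, 1155, 1204, and 1132 in the α4β7+ libraries, 450.0, 454, 615, and 553 in the α4β7− CD22− libraries, and 281, 389, 499, and 476 in the CD22+ libraries. Its α4β7+ libraries were close together and far above every other library. Tpi1 was 2.28-fold lower in α4β7− CD22− (−1.19 ± 0.16, adjusted p = 0.000131) and 2.92-fold lower in CD22+ eosinophils (−1.54 ± 0.16, adjusted p = 5.18e-06).

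Gapdh, which oxidizes glyceraldehyde 3-phosphate and is often used as a reference gene, was not constant in these cells. Its normalized counts were 14306, 15519, 14771, and 12369.9 in the α4β7+ libraries, 9096, 9917, 8297, and 8791 in the α4β7− CD22− libraries, and 7372, 7648, 7442, and 8687 in the CD22+ libraries. The α4β7+ libraries were highest without overlap, and the later subsets overlapped. Gapdh was 1.58-fold lower in α4β7− CD22− (−0.66 ± 0.082, adjusted p = 7.6e-05) and 1.83-fold lower in CD22+ eosinophils (−0.87 ± 0.082, adjusted p = 2.27e-06). Gapdh shares at least 90% identity over 300 bases or more with 175 other genes of the table, Peli2 the highest among them, whose summed level was 15.5% of that of Gapdh in α4β7+ eosinophils. With these genes added, the log2 fold change was −0.55 and −0.75, and the former falls under the fold limit.

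Pgk1, which makes the first ATP of the pathway, and Eno1, the enolase that forms phosphoenolpyruvate, had the lowest adjusted p of all members in the comparison of α4β7− CD22− with α4β7+ eosinophils, and also in that of CD22+ with α4β7+ eosinophils. Pgk1 (ENSMUSG00000062070, chrX:106187100-106203699) gave 1729.8, 1886, 1998, and 1743 in the α4β7+ libraries, 872, 792, 834, and 846 in the α4β7− CD22− libraries, and 611, 669, 708, and 776 in the CD22+ libraries. The subsets did not overlap, and the gap between α4β7+ and α4β7− CD22− eosinophils was larger than the range within either. Its log2 fold change was −1.14 ± 0.088 (adjusted p = 7.56e-07) and −1.41 ± 0.088 (adjusted p = 2.75e-08) in the α4β7− CD22− and CD22+ subsets.

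Eno1 (ENSMUSG00000063524, chr4:150236721-150248879) was the gene called in every comparison. Normalized counts of Eno1 were 9510.2, 8245, 9846, and 8909.7 in the α4β7+ libraries, 3602, 3189.5, 3439.7, and 3275 in the α4β7− CD22− libraries, and 2149, 2183, 2135, and 2474 in the CD22+ libraries. No library of a subset overlapped with another subset, α4β7+ libraries stood far above the rest, and CD22+ replicate 4 was apart from the other CD22+ libraries. Eno1 was 2.70-fold lower in α4β7− CD22− (−1.43 ± 0.075, adjusted p = 2.33e-08) and 4.08-fold lower in CD22+ than in α4β7+ eosinophils (−2.03 ± 0.075, adjusted p = 2.91e-10). Between CD22+ and α4β7− CD22− eosinophils it was 1.51-fold lower (−0.60 ± 0.075, adjusted p = 0.000872), just past the fold limit of 1.5. Without α4β7− CD22− replicate 1 or CD22+ replicate 1 or 3 this difference was −0.56, −0.58, and −0.57 with an adjusted p of 0.00571, 0.00382, and 0.00394, so that the fold limit and not the test ended the call. Copies of Eno1 with at least 90% identity, Eno1b the highest among them, summed to 2.23% of its level in α4β7+ eosinophils, and the log2 fold change with them was −1.45 and −2.03.

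Pgam1, the phosphoglycerate mutase, read 2536, 1975, 2295, and 1818 in the α4β7+ libraries, 1469.8, 1406, 1112, and 1250.1 in the α4β7− CD22− libraries, and 1080.5, 1264, 967, and 1455 in the CD22+ libraries. The α4β7+ libraries lay above the others, and the later subsets overlapped. Its log2 fold change was −0.72 ± 0.14 (adjusted p = 0.00238) and −0.86 ± 0.14 (adjusted p = 0.000318). Pkm, the pyruvate kinase of the last step, ranged from 14392 to 16679.9 in the α4β7+ libraries, 10925 to 12524 in the α4β7− CD22− libraries, and 10138 to 10716 in the CD22+ libraries without overlap. Its log2 fold changes of −0.41 ± 0.063 and −0.56 ± 0.063 passed the adjusted p (0.000408 and 1.1e-05) but not the fold limit, which the latter exceeded without α4β7+ replicate 4 (−0.60). Per kb in α4β7+ eosinophils, Gapdh (10029) stood highest, followed by Aldoa (8034), Pkm (6382), and Eno1 (4503). In CD22+ eosinophils the order was Gapdh (5484), Pkm (4315), Aldoa (4224), Ldha (3255), and Gpi1 (1982), with Eno1 at 1103.

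**Figure D2:**
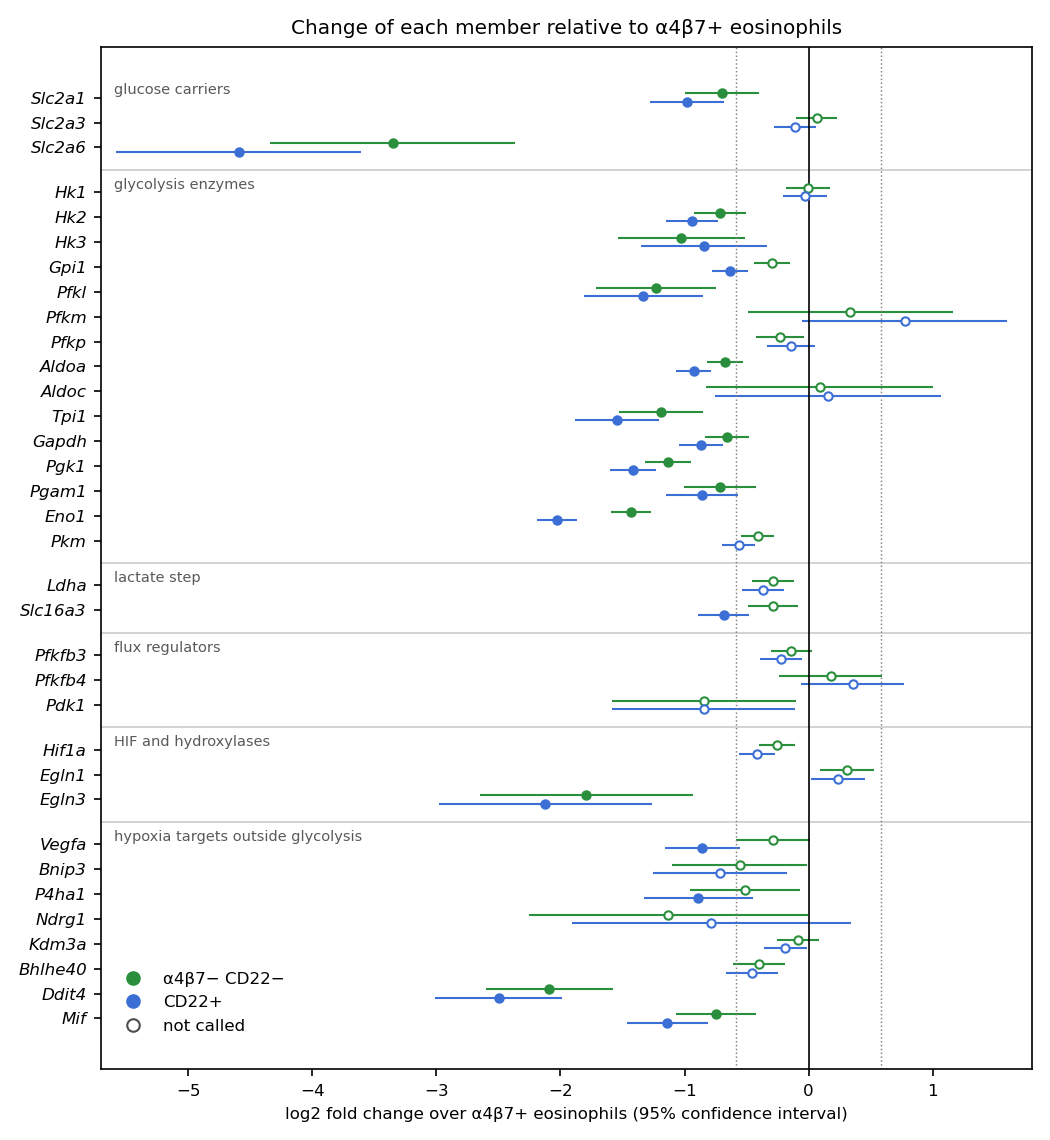
Log2 fold change over α4β7+ eosinophils of the 34 tested genes in α4β7− CD22− and CD22+ eosinophils, with 95% confidence intervals from limma; filled points were called and dotted lines mark a fold change of 1.5. Filled points lie only to the left of 0, with Slc2a6 at −3.35 and −4.59 farthest out, and Pfkm at 0.77 in CD22+ eosinophils is the highest open point.

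At the lactate step, Ldha, which reduces pyruvate to lactate, decreased by little. Its range was 6942 to 8010.0 in the α4β7+ libraries, 6090.4 to 6322 in the α4β7− CD22− libraries, and 5442 to 7003 in the CD22+ libraries, and its log2 fold changes of −0.29 ± 0.080 and −0.37 ± 0.080 passed the adjusted p (0.0242 and 0.00385) under the fold limit. Ldhb, the form that favors the reverse reaction, was at most 12.8 normalized counts in any library and was not tested. Slc16a3 encodes MCT4, the carrier that exports lactate. Normalized counts of Slc16a3 were 6653, 5374, 6874, and 5837 in the α4β7+ libraries, 5468, 4667, 5377, and 4708 in the α4β7− CD22− libraries, and 4128, 3923, 3299.8, and 4009 in the CD22+ libraries. CD22+ libraries lay below both other subsets, which overlapped with each other. The log2 fold change was −0.29 ± 0.095 in α4β7− CD22− (adjusted p = 0.0576, not called) and −0.69 ± 0.095 in CD22+ eosinophils (adjusted p = 9.67e-05).

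None of the 3 regulators of glucose flux was called. Pfkfb3 and Pfkfb4, which set the level of the phosphofructokinase activator fructose 2,6-bisphosphate, ranged from 1294 to 1739 and from 221 to 408, and their log2 fold changes in CD22+ eosinophils were −0.22 ± 0.078 (adjusted p = 0.0572) and 0.35 ± 0.19 (adjusted p = 0.234). Pdk1, the kinase that blocks entry of pyruvate into mitochondria, had uneven α4β7+ libraries, 139, 115, 233, and 470.2, against 83.4 to 143 in α4β7− CD22− and 96.2 to 151 in CD22+ eosinophils. Its log2 fold changes of −0.84 ± 0.35 and −0.85 ± 0.35 were not called (adjusted p = 0.127 and 0.103), and both were called without α4β7+ replicate 2, at −1.12 and −1.12 with an adjusted p of 0.0417 and 0.0295. Blocking on the replicate number also led to a call in CD22+ eosinophils (adjusted p = 0.0402).

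Hif1a, the oxygen-regulated subunit of HIF, itself had less RNA in the later subsets. Its libraries ranged from 6457 to 7596 in the α4β7+ subset, 5786 to 6058 in the α4β7− CD22− subset, and 4994 to 5764 in the CD22+ subset, without overlap between any of them. Its log2 fold changes of −0.25 ± 0.067 and −0.42 ± 0.067 passed the adjusted p (0.0191 and 0.000357) but were under the fold limit. HIF activity is set mainly by the stability of the protein, which was not measured here.

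Of the 2 prolyl hydroxylases, Egln3 was called and Egln1 was not. Egln3 encodes PHD3, which is both a brake on HIF and a target of it. Normalized counts of Egln3 were 84.0, 78.8, 103, and 68.3 in the α4β7+ libraries, 18.8, 17.4, 40.2, and 21.6 in the α4β7− CD22− libraries, and 25.5, 12.7, 35.3, and 9.32 in the CD22+ libraries. All α4β7+ libraries were above the 8 others, while the later subsets overlapped. Egln3 was 3.47-fold lower in α4β7− CD22− (−1.79 ± 0.40, adjusted p = 0.00712) and 4.35-fold lower in CD22+ eosinophils (−2.12 ± 0.40, adjusted p = 0.00135). Egln1, which encodes PHD2, the main oxygen sensor, had log2 fold changes of 0.31 ± 0.10 and 0.24 ± 0.10 that were not called (adjusted p = 0.0571 and 0.117), with values of 555 to 734 in the α4β7+ libraries, 723 to 809.9 in the α4β7− CD22− libraries, and 641 to 762 in the CD22+ libraries. Per kb, Egln1 was the higher of the pair in each subset, at 171, 211, and 201 against 31.4, 9.21, and 7.78 for Egln3.

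Of the 9 hypoxia targets outside glycolysis, 8 were tested. Compared to the α4β7+ subset, 2 were called lower in the α4β7− CD22− subset and 4 in the CD22+ subset, and 0 were called higher. Ddit4 encodes REDD1, an inhibitor of mTORC1 that is induced by hypoxia and by other stresses such as glucocorticoid exposure. Normalized counts of Ddit4 were 308, 411, 304, and 359.9 in the α4β7+ libraries, 81.0, 56.6, 109.7, and 80.5 in the α4β7− CD22− libraries, and 56.9, 39.9, 81.6, and 69.4 in the CD22+ libraries. The lowest α4β7+ library was more than 2 times the highest library of either later subset, and the latter overlapped. Ddit4 was 4.26-fold lower in α4β7− CD22− (−2.09 ± 0.24, adjusted p = 3.22e-05) and 5.65-fold lower in CD22+ eosinophils (−2.50 ± 0.24, adjusted p = 2.5e-06).

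Mif, a cytokine with tautomerase activity, gave 342, 329.8, 438, and 412 in the α4β7+ libraries, 222, 218, 185, and 287 in the α4β7− CD22− libraries, and 159.7, 161, 170.0, and 196 in the CD22+ libraries. The α4β7+ libraries were highest without overlap. Its log2 fold change was −0.75 ± 0.15 (adjusted p = 0.00372) and −1.14 ± 0.15 (adjusted p = 6.32e-05). Copies of Mif cover 93.4% of its transcript at 90% identity or more, and their summed level was 0.368% of that of Mif in α4β7+ eosinophils.

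Vegfa, the growth factor for blood vessels, and P4ha1, a subunit of the prolyl hydroxylase of collagen, were called only in CD22+ compared to α4β7+ eosinophils. Normalized counts of Vegfa were 4309, 3578, 5624, and 4217 in the α4β7+ libraries, 3418, 3365, 3667, and 3918 in the α4β7− CD22− libraries, and 2836, 2651, 1826, and 2483 in the CD22+ libraries. CD22+ libraries lay below all others, and the α4β7+ and α4β7− CD22− libraries overlapped. The log2 fold change was −0.29 ± 0.14 in α4β7− CD22− (adjusted p = 0.207), −0.86 ± 0.14 in CD22+ compared to α4β7+ eosinophils (adjusted p = 0.000405), and −0.57 ± 0.14 in CD22+ compared to α4β7− CD22− eosinophils (adjusted p = 0.0779). P4ha1 gave 488, 591, 935, and 612 in the α4β7+ libraries, 435, 387, 482, and 491 in the α4β7− CD22− libraries, and 384, 304, 249.7, and 478 in the CD22+ libraries. The α4β7+ and CD22+ libraries were apart by a small margin, and the α4β7− CD22− libraries overlapped with both. P4ha1 differed by −0.51 ± 0.21 in the α4β7− CD22− subset (adjusted p = 0.118) and by −0.89 ± 0.21 in CD22+ eosinophils (adjusted p = 0.00591).

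The other 4 tested targets were not called. Bhlhe40, a transcriptional repressor, changed by −0.40 ± 0.097 (adjusted p = 0.0121) and −0.46 ± 0.097 (adjusted p = 0.00328) on the log2 scale, which was under the fold limit. Kdm3a, a histone demethylase, ranged from 1656 to 2201 with log2 fold changes of −0.09 ± 0.081 and −0.19 ± 0.081. Bnip3, a receptor for mitophagy, ranged from 50.5 to 153 and reached −0.71 ± 0.25 in CD22+ eosinophils (adjusted p = 0.06), which was called without α4β7+ replicate 4 (−0.90, adjusted p = 0.0219) and after quantile normalization (−0.75, adjusted p = 0.0447). Ndrg1, a stress-induced gene, spread from 22.1 to 102 within the α4β7+ libraries alone, and its log2 fold changes were −1.13 ± 0.53 and −0.78 ± 0.53 (adjusted p = 0.183 and 0.341), the former called without α4β7+ replicate 1 (−1.59, adjusted p = 0.0449). Ak4, an adenylate kinase of mitochondria, was at most 14.3 normalized counts in any library and was not tested.

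The question of whether glycolytic genes and other hypoxia targets moved by like amounts was addressed by comparing their medians. In α4β7− CD22− eosinophils, the 18 glycolytic enzymes and glucose carriers had a median log2 fold change over α4β7+ of −0.69, and the 8 tested targets outside glycolysis had one of −0.53. In CD22+ eosinophils these medians were −0.86 and −0.82. From α4β7− CD22− to CD22+ eosinophils they were −0.19 and −0.27. The class medians thus differed by −0.15, −0.05, and 0.07. These differences depended on single libraries. The first was −0.29 without α4β7− CD22− replicate 2 and −0.05 without α4β7+ replicate 1. The second was −0.18 without α4β7+ replicate 3 or CD22+ replicate 2 and 0.06 without α4β7+ replicate 1. The third was 0.19 without α4β7− CD22− replicate 2 and −0.04 without α4β7− CD22− replicate 3. Within a library, the median log2 level of the former class exceeded that of the latter by 1.68 to 2.27 in α4β7+, 1.53 to 1.98 in α4β7− CD22−, and 1.96 to 2.32 in CD22+ libraries, and the ranges of all 3 subsets overlapped. By replicate number, this excess was larger in each CD22+ than in the α4β7− CD22− library (1.96 against 1.90, 2.32 against 1.98, 2.15 against 1.71, and 1.96 against 1.53), which was not tested. Called genes made up 11 of 18 and 2 of 8 in α4β7− CD22−, and 12 of 18 and 4 of 8 in CD22+ eosinophils, but 15 and 16 of the 18 and 8 and 8 of the 8 had a log2 fold change below 0. With Egln1 and Egln3 counted among the targets, the class differences were −0.15, −0.05, and 0.05. No p is given for these medians because the classes were drawn up with earlier results of these data known.

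The median log2 fold change of the 34 genes was −0.53 in the step from α4β7+ to α4β7− CD22− eosinophils and −0.16 in the step from there to CD22+ eosinophils. Whether these steps differed in size was tested per gene, as the difference of α4β7− CD22− eosinophils from the mean of both ends. Eno1 and Pgk1 passed at an adjusted p of 0.00479 and 0.0126, both with the larger decrease in the step from α4β7+, beside 1.23% of all genes with unequal steps and 0.557% in this direction. The Eno1 levels of α4β7− CD22− eosinophils lay 0.42 ± 0.065 under the mean of the ends on the log2 scale, and those of Pgk1 0.43 ± 0.076. For Pgk1 the adjusted p was 0.0573 without α4β7− CD22− replicate 2. Ddit4 had the next lowest adjusted p, with a difference of −0.84 ± 0.21 (adjusted p = 0.0686). Without CD22+ replicate 2 the adjusted p of Ddit4 was 0.0307, and without CD22+ replicate 1 that of Tpi1 was 0.0346. For the other tested genes, Gpi1, Vegfa, and Slc16a3 among them, with differences of 0.02 ± 0.058, 0.14 ± 0.12, and 0.06 ± 0.083, unequal steps were not detectable.

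**Figure D3:**
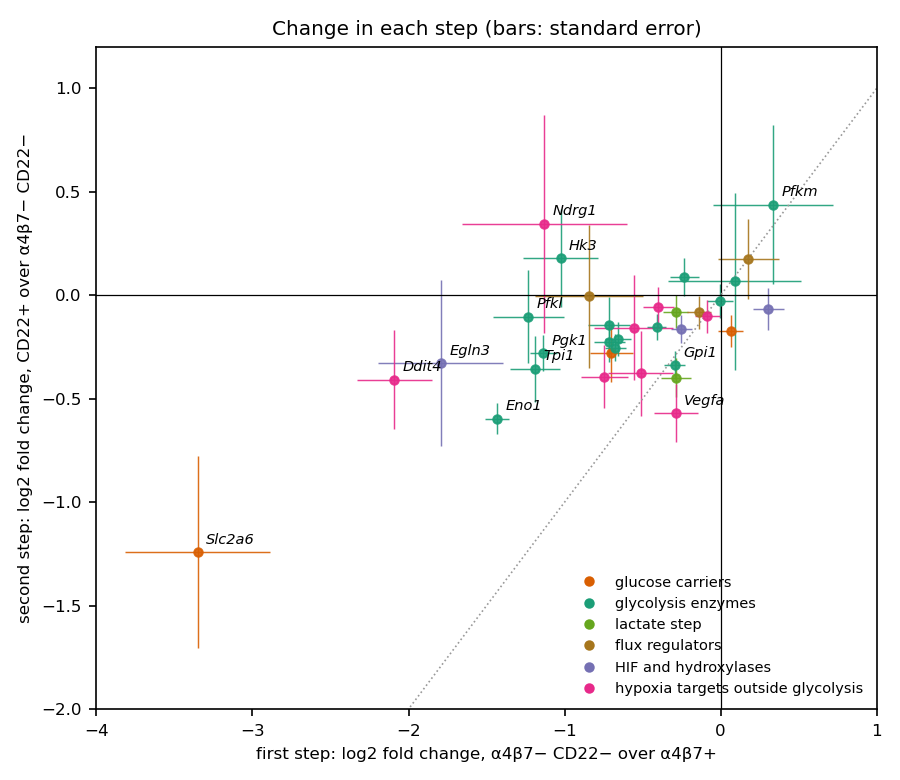
Log2 fold change of each tested gene in the step from α4β7+ to α4β7− CD22− (horizontal axis) and in the step from α4β7− CD22− to CD22+ eosinophils (vertical axis), with standard errors as bars and a dotted line where both steps are equal. Slc2a6, Ddit4, Egln3, Eno1, Tpi1, and Pgk1 lie above the line on the left with the larger decrease in the step on the horizontal axis, and Vegfa lies below it at −0.29 and −0.57.

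Paralogous genes were also compared by ratios within a library, taken as differences of log2(normalized count + 1). Of 10 pairs, 9 were tested in 3 comparisons each, and Ldhb to Ldha was left out because of low counts. The smallest two-sided p that an exact permutation test of 4 against 4 libraries can give is 0.0286, and 12 of the 27 tests reached it, all in comparisons with α4β7+ eosinophils. Adjusted over the 27 tests, this value became 0.0643, so that 0 ratios passed 0.05 after adjustment. The 12 comprise Slc2a1 to Slc2a3, Slc2a6 to Slc2a3, Pfkp to Pfkl, Pfkm to Pfkl, and Egln3 to Egln1 in both later subsets, Hk1 to Hk3 in α4β7− CD22−, and Aldoc to Aldoa in CD22+ eosinophils. Pfkp to Pfkl had a log2 ratio of 1.09 ± 0.147 (SD, n = 4) in α4β7+ cells, with 2.09 ± 0.580 for the α4β7− CD22− subset and 2.28 ± 0.179 for the CD22+ subset. For Egln3 to Egln1 it was −2.87 ± 0.254, −4.97 ± 0.567, and −5.23 ± 0.912 in the same order. The ratio of Slc2a1 to Slc2a3 was −1.88 ± 0.127, −2.65 ± 0.206, and −2.75 ± 0.216. In each of these the α4β7+ libraries did not overlap with the others, and the later subsets overlapped.

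**Figure D4:**
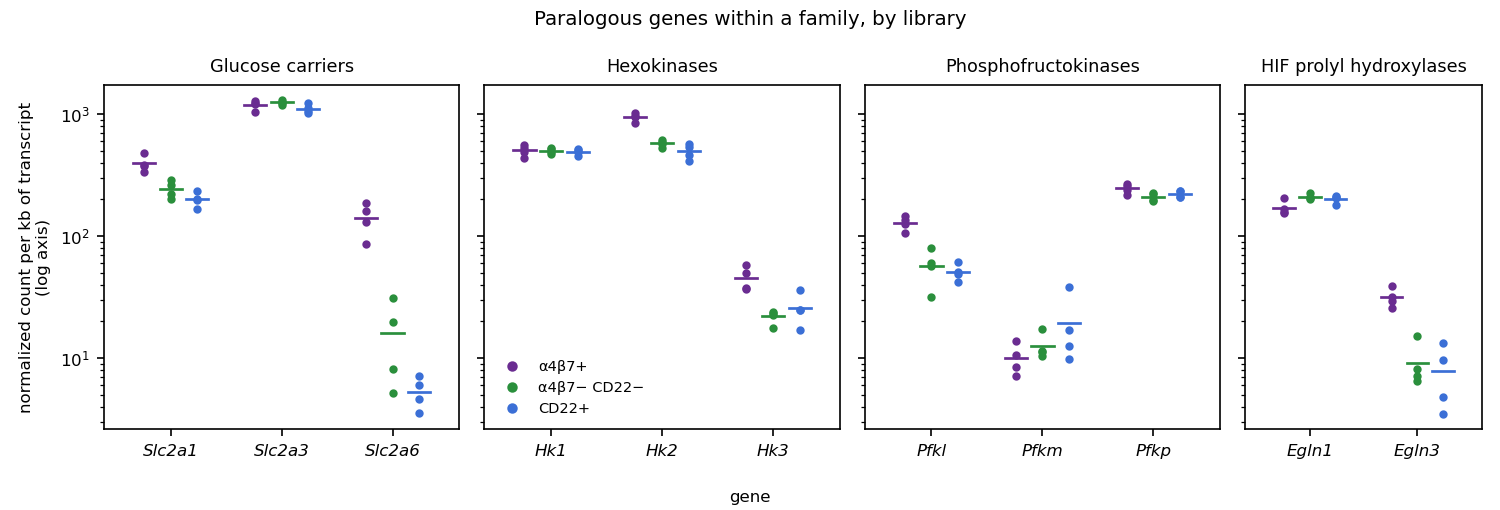
Normalized count per kb of the longest coding transcript, on a log axis, for the glucose carriers, hexokinases, phosphofructokinases, and prolyl hydroxylases, with a point per library and a bar for the mean of each subset. Slc2a3, Hk1, Pfkp, and Egln1 keep nearly level bars, while Slc2a6 runs from 140.4 to 5.31 and Egln3 from 31.4 to 7.78.

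Further genes of the same pathways were taken from lists. Of 30 other glycolysis genes, 20 were tested, and their median log2 fold change was 0.02 in both later subsets compared to α4β7+ eosinophils. Only Pgm2, a phosphoglucomutase, was called, with averages of 1665, 2600.1, and 2565 and differences of 0.64 ± 0.069 and 0.62 ± 0.069 on the log2 scale (adjusted p = 1.78e-05 and 1.08e-05). Pgm2 was thus higher in the later subsets, without overlap with α4β7+ libraries. Of 14 genes for the entry of pyruvate into mitochondria, all tested, Pdp2, the phosphatase that activates pyruvate dehydrogenase, was called higher (0.61 ± 0.15 and 0.86 ± 0.15, adjusted p = 0.0115 and 0.00063), and 0 were called lower.

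Of 8 genes of the pentose phosphate pathway, which makes NADPH from glucose 6-phosphate, 0 were called in α4β7− CD22− and 2 were called lower in CD22+ eosinophils. These were Pgls, the lactonase (−0.67 ± 0.20, adjusted p = 0.027), and Taldo1, the transaldolase (−0.59 ± 0.10, adjusted p = 0.000539). By the adjusted p alone, 3 and 6 of the 8 genes were lower and 0 were higher, beside 7.73% and 11.1% of all genes lower. In both later subsets 7 of the 8 had a log2 fold change below 0, and the medians of the list were −0.29 and −0.42. Of 10 other HIF subunits and oxygen-sensing genes, 9 were tested and 0 were called in any comparison, with an adjusted p above 0.05 for all 9, and with Arnt, the partner of HIF-1α, at 0.19 ± 0.095 in both later subsets.

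Of 34 other hypoxia targets, 28 were tested, with medians of −0.09 and −0.09 in α4β7− CD22− and CD22+ compared to α4β7+ eosinophils. Those called higher and lower numbered 2 and 5 in the α4β7− CD22− subset, 3 and 6 in the CD22+ subset, and 1 and 1 between these subsets. Ankrd37, an ankyrin repeat protein, was lower by like amounts in both later subsets (−2.06 ± 0.42 and −2.02 ± 0.42, adjusted p = 0.0037 and 0.00267). Dusp1, a phosphatase of MAP kinases that is also on the list of dissociation genes below, averaged 28795, 16643, and 12516 (−0.79 ± 0.089 and −1.20 ± 0.089, adjusted p = 2.67e-05 and 1.85e-07). Nos2, the inducible nitric oxide synthase, is among the 6 counted as lower in CD22+ eosinophils (−1.95 ± 0.64, adjusted p = 0.0416), but with means of 21.5, 6.96, and 4.35 it passed the filter on the mean only through the α4β7+ libraries, of which replicate 1 was at 43.8 and the others at 11.0 to 19.5, so its difference is given as a description. In the opposite direction, Hmox1, which degrades heme, was higher in both later subsets (0.80 ± 0.23 and 1.11 ± 0.23, adjusted p = 0.0317 and 0.00303), with means of 40.8, 71.0, and 87.2.

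Other transcripts moved with these genes, and their part in the results was not tested. Of 22 genes induced by tissue dissociation and cell stress, 20 were tested, of which 6 were called lower and 1 higher in α4β7− CD22− and 8 lower and 1 higher in CD22+ compared to α4β7+ eosinophils. Their summed level was 209024 to 258615 in α4β7+, 195766 to 217504 in α4β7− CD22−, and 149943 to 174088 in CD22+ libraries. Although the gate leaves out Ly6g+ cells, neutrophil markers were measured, and the summed level of 8 of them was 14394 to 22035, 5971 to 8030.4, and 2859 to 3675, of which Retnlg made up means of 18828, 6709, and 3053, while Elane was at 0 in every library and the means of Ly6g, S100a8, and Camp were under 3. Of the 3 neutrophil markers tested, 1 was called lower in α4β7− CD22− and 2 in CD22+ compared to α4β7+ eosinophils. The third, Ngp, a granule protein named here after its values were seen, was called higher in both later subsets (1.71 ± 0.19 and 2.15 ± 0.19, adjusted p = 2.58e-05 and 1.21e-06), with means of 31.6, 106.4, and 143.4. Epithelial markers summed to 4849 to 10558, 3430 to 7092, and 2324 to 11397, and markers of B and plasma cells to 14786 to 31057, 10538 to 30627, and 14763 to 32133, with overlap between all subsets. The summed level of 8 stromal and endothelial markers was 10646 to 12144, 12752 to 13931, and 11564 to 12438, higher without overlap in α4β7− CD22− than in α4β7+ libraries, and 0 of the 8 were called in any comparison. Of 15 epithelial markers tested, 15 and 14 had a log2 fold change below 0 in α4β7− CD22− and CD22+ compared to α4β7+ eosinophils, with a median of −0.57 in both, and 1 and 0 were called lower. Among T cell markers 2 of 6 were called lower in α4β7− CD22− eosinophils and 0 in CD22+ eosinophils, and among Paneth cell markers 1 of 4 was called higher in CD22+ eosinophils. Of 11 eosinophil markers, 5 and 9 passed the adjusted p with lower values and 3 and 5 were called lower in the α4β7− CD22− and CD22+ subsets, with medians of −0.30 and −0.54, among them the eotaxin receptor Ccr3 in both (−0.72 ± 0.079 and −1.22 ± 0.079, adjusted p = 1.96e-05 and 4.45e-08).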

How the data were processed

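The study compared RNA of 3 subsets of SI eosinophils in 4 libraries each. The authors pooled 2 mice for a library, made stranded libraries of total RNA from 3 ng, trimmed reads (Trimmomatic 0.39 per the labels), pseudoaligned them to mm10 with Kallisto 0.46.1, and normalized counts with DESeq2 1.38.2. The authors deposited these normalized counts, a signal scaled between libraries. They are not whole numbers. Only 21.7% to 52.3% of values under 50 reads in a library lay within 0.05 reads of a whole multiple of its most frequent low value, so reads were not recovered and depth per library is unknown.

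Genes whose mean normalized count exceeded 10 entered a two-sided test in limma 3.58.1 (R 4.3.3) on log2(normalized count + 1), with the 12 libraries in 1 model and a variance trend. Fold changes are on this scale, which understates those of low genes. Benjamini-Hochberg adjustment covered 15249 genes per comparison, and calls took the thresholds of the study, an adjusted p up to 0.05 with a fold change from 1.5. The script was tested on simulated data. Ratios were compared by exact permutation tests in scipy 1.17.1. Transcript copies were found with BLAST 2.17.0 (GENCODE transcripts of GRCm38, identity of at least 90%, match of at least 300 bases), and levels per kb use the longest coding transcript. Python 3.11.15 with pandas 2.3.3 and matplotlib 3.10.9 made tables and figures.

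The members and all gene lists were chosen with earlier results of these data known. Members called in at least 1 comparison are given for every library, the others by range, and of each further list up to 5 called genes with the largest change, of which 1 is not reported here. The model had no replicate block. Deviations from the subset means correlated above 0.1 in every same-numbered pair only between α4β7− CD22− and CD22+ libraries (0.135 to 0.203). Between α4β7+ and α4β7− CD22− libraries these correlations were 0.043 to 0.137, and between α4β7+ and CD22+ libraries −0.059 to 0.182. A block was therefore an alternative, fitted over all 3 subsets and, after the data were seen, over the α4β7− CD22− and CD22+ libraries alone. The labels do not say that numbers mark shared mice. Alternatives were other pseudocounts, filters, and scalings, a constant prior variance, no fold limit, the replicate number as a block, a fit of only 2 subsets, and each library left out. The raw reads were not used here.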

Additional observations from a re-analysis of the deposited data

Results flagged for a closer look

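In 4 of 102 groups of 4 libraries, 1 library of a member stood apart from the other libraries of its subset by Dixon's criterion, and 5.1 such groups would be reached if 1 in 20 did so by chance. Pfkm in α4β7− CD22− replicate 3 was 50.3, with the others at 29.7 to 33.0. Eno1 in CD22+ replicate 4 was 2474, with the others at 2135 to 2183, and this library lay nearest to the α4β7− CD22− libraries. Egln1 in CD22+ replicate 3 was 641.5, with the others at 743.8 to 762.2. Bnip3 in CD22+ replicate 2 was 50.49, with the others at 82.7 to 86.3. These are 4 different libraries, and 3 of them are CD22+.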

How the results depend on the processing

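For 35 calls of a member in a comparison, 765 values were computed under alternatives, of which 752 kept the direction and the call, 13 lost the call, and 0 reversed. The number of members called in CD22+ compared to α4β7− CD22− eosinophils was 0 after rescaling by the 75th percentile and after quantile normalization, 2 with the adjusted p alone (Eno1 and Gpi1), and 0 to 1 when single libraries were left out. Under the same scalings Eno1 was at −0.58 and −0.55 with an adjusted p of 0.00157 and 0.00199, under the fold limit. Quantile normalization also placed Aldoa and Gapdh in α4β7− CD22− (−0.54 and −0.52) and Gpi1 and Slc16a3 in CD22+ eosinophils (−0.49 and −0.56) under the fold limit, and added Bnip3 in CD22+ eosinophils (−0.75, adjusted p = 0.0447). Members with unequal steps numbered 1 to 3 when single libraries were left out. The medians of the 2 classes differed by −0.29 to −0.05, −0.18 to 0.06, and −0.04 to 0.19 in the 3 comparisons when single libraries were left out, so the sign of the last 2 was not stable. It also turned to 0.03 for CD22+ compared to α4β7+ eosinophils under quantile normalization and to −0.04 for CD22+ compared to α4β7− CD22− eosinophils with no filter. Treating the replicate number as a block gave 14, 19, 1, and 2 called members in the 4 tests, with Pdk1 added in CD22+ eosinophils (adjusted p = 0.0402), and changed no other call. With the adjusted p alone, 19 and 22 members were called in the comparisons with α4β7+ eosinophils. Leaving out a library in a ratio test leaves 3 against 4 libraries, which cannot reach 0.05 after two-sided exact permutation, so these settings were read for direction only. The depth behind the values is unknown, so the counting error of members with low levels, such as Egln3 and Slc2a6 in CD22+ eosinophils, could not be given.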
